A study of Drosophila melanogaster with 6 samples.

Results

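The 10 genes described here make up the core of the Dpp signalling pathway, the fly branch of bone morphogenetic protein (BMP) signalling: dpp, gbb, tkv, sax, put, Mad, Med, Dad, brk and shn. They were named by FlyBase symbol and matched to the gene identifiers of the count tables, which found all 10 among 17559 genes. Dad entered this set because of its measured counts: it was selected on its mutant against control difference in these libraries, and the other 9 were added as parts of its pathway. Therefore the mutant against control values of the 10 genes are given as a description, with no p-value, and whether a gene was called is part of that description and supports nothing.

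In this pathway a secreted ligand joins type I and type II receptor kinases, which phosphorylate the Smad protein Mad. Mad enters the nucleus with its partner Med and, with the zinc finger protein Shn, represses brk, itself a repressor of Dpp target genes. Dad is an inhibitory Smad and is also a target of the pathway, so its mRNA is widely used as a readout of the signal. In the fly ovary, Dpp from somatic cells at the tip of the germarium keeps germline stem cells from differentiating by repressing bam, and later follicle cells that make Dpp pattern the anterior eggshell.

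The series measured poly(A) RNA of dissected ovaries in 6 directional libraries from flies kept at 25 °C. The 3 mutant libraries came from flies with the RanBP9 allele D1 over the deficiency BSC469, and the 3 control libraries from flies with a w1118 chromosome over that same deficiency, so every group carries BSC469. RanBP9 is the older name of Ipo9, the gene of Importin-9, which carries actin into the nucleus, and the series asks what a lower level of nuclear actin does to transcription. The labels do not give the age of the flies, how many were pooled, or whether replicates came from separate crosses, so the p-values measure the spread between these libraries, which may be technical.

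Libraries held 21583524 to 26483578 counted reads. Ipo9 was at 98.3, 91.1 and 92.0 CPM in mutant replicates 1, 2 and 3 and at 118, 155 and 116 CPM in control replicates 1, 2 and 3, where CPM is counts scaled to a common library total with composition factors. On the first principal component the mutant libraries lay at −7.92 to −27.3 and the control libraries at 16.7 to 22.2, and mutant replicate 2 stood apart on the second, at −26.1. Germline markers summed to 3025 to 3191 CPM in mutant and 3063 to 3219 CPM in control libraries. Of 6, 2 were called higher and 1 lower (called means an edgeR adjusted p under 0.05). Over all genes tested, 8.31% were called higher and 6.20% lower, which is the background for each marker list here. Much of the germline sum was osk, with means of 1754 CPM in mutant and 1701 CPM in control libraries. On the same strand, exons of lncRNA:osk cover 78.5% of the exon length of osk, and exons of solo 24.6% of that of vas. The counts of osk and vas are uncertain there. In 5 of the 6 germline genes the groups did not overlap, where they did not overlap in 34.9% of all genes tested. limma-voom gave the same calls, while DESeq2 called 1 higher (aub) and 3 lower (bcd, otu and vas). Follicle cell markers summed to 7922 to 9447 CPM in mutant and 10303 to 12177 in control libraries, with 1 of 6 called, Cp36, which was lower. DESeq2 and limma-voom each called 2 lower, Cp36 and Vm26Aa. Most of the follicle sum was Cp36, Vm26Aa and Yp1. Their means were 3430, 2360 and 3048 CPM in mutant and 5133, 3008 and 3221 CPM in control libraries. Fas3, slbo and eya were far lower and not called, with log2 fold changes of −0.23, 0.02 and 0.22. Markers of somatic cells of the germarium summed to 239 to 296 and 268 to 280 CPM, with 1 of 9 called lower and 3 too low to test. The called gene was LamC, at 63.2 ± 3.60 CPM in mutant and 87.9 ± 8.19 CPM in control libraries (SD, n = 3). Its log2 fold change was −0.48 (SE 0.07, edgeR adjusted p = 0.00281), and DESeq2 and limma-voom also called it lower. The other 5 genes tested in that list were not called. Muscle markers, which the ovarian sheath also expresses, summed to 71.7 to 133 and 68.8 to 115 CPM, with 0 of 5 called. Fat body markers summed to 11.5 to 21.3 and 20.3 to 41.5 CPM, and neuron markers to 2.99 to 4.73 and 2.45 to 3.22 CPM, with Syt1 at 0 counts. In each of these lists 2 of 3 genes were too low to test, and the 1 tested was not called. The log2 fold change was −0.92 (SE 0.37, edgeR adjusted p = 0.185) for apolpp of the fat body. For the neuron gene elav it was 0.45 (SE 0.23, edgeR adjusted p = 0.228). Exons of lncRNA:enrr on the same strand cover 27.9% of the exon length of elav. Testis markers stayed below 1 CPM in sum, at 0.644 to 0.860 and 0.230 to 0.341, with dj and Mst84Da at 0 counts and betaTub85D called higher. That call rests on 14 to 22 counts in mutant and 5 to 8 in control libraries. limma-voom made it too, and DESeq2 did not. In the muscle, fat body and neuron lists, 0 of the genes tested passed an unadjusted p under 0.05 with edgeR. DESeq2 and limma-voom called 0 of them. For fat body and neurons this rests on 1 gene each.

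Dad was the member of the pathway with the large difference. Its level was 43.1, 42.1 and 45.3 CPM in mutant replicates 1, 2 and 3 and 19.6, 18.4 and 18.4 CPM in control replicates 1, 2 and 3. Each mutant library held more than double the Dad mRNA of any control library, and the libraries of each group lay close together. The means were 43.5 ± 1.64 CPM in mutant and 18.8 ± 0.659 CPM in control ovaries (SD, n = 3 each), or 2.31-fold, and the fitted difference was 1.21 (SE 0.06) on the log2 scale. These levels rest on 1102, 915 and 1015 counts in the mutant and 520, 401 and 432 counts in the control libraries. In bulk ovary RNA, more cells that express a gene and more mRNA per cell cannot be told apart, and this holds for every difference below.

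**Figure D1:**
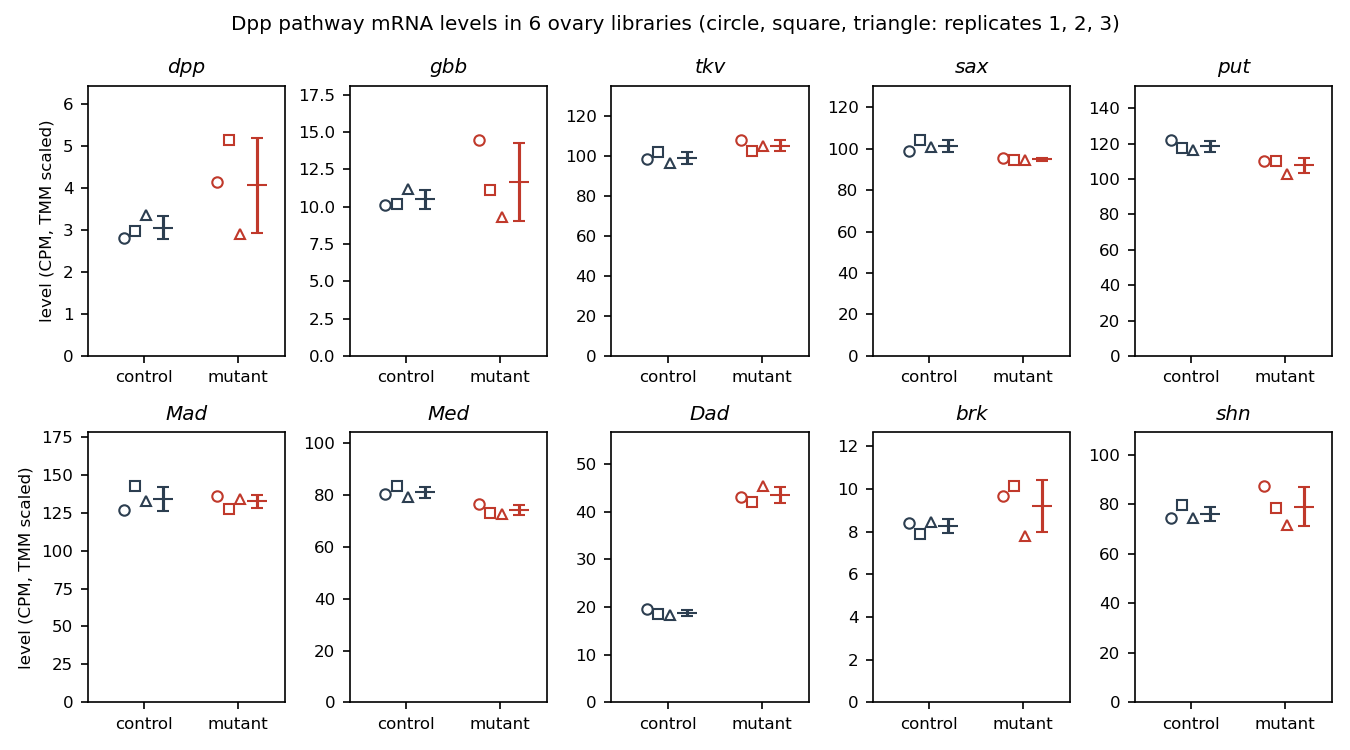
Levels of the 10 pathway genes in CPM (vertical axes, each from 0) in control and mutant ovary libraries, with open symbols for replicates 1, 2 and 3 and a bar for the mean ± SD of 3 libraries. Dad sits at 42.1 to 45.3 CPM in the mutant and 18.4 to 19.6 CPM in the control libraries, and the other 9 genes have group means within 1.33-fold of each other.

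Dad was also the 1 gene of the 10 called higher in the edgeR fit over all genes, and 0 were called lower, where 8.31% of all 8110 genes tested were called higher and 6.20% lower, 14.5% in either direction. All 10 genes passed the filter on low counts. The log2 fold changes of the other 9 ran from −0.14 to 0.41 with a median of 0.05, against a median of −0.00334 over all genes tested. In 5 of the 10 genes the groups did not overlap, Dad and tkv higher and sax, put and Med lower in the mutant, where the groups did not overlap in 34.9% of all genes tested. Dad kept its call under all 14 alternatives tried, with log2 fold changes of 1.18 to 1.24. None of the other 9 was called under any of them. Dad was selected on this difference in these same libraries, so its calls are a description and no independent test.

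The ligand genes had low counts, with dpp the lowest of the 10, and the widest spread among the mutant libraries. dpp, which encodes the ligand related to vertebrate BMP2 and BMP4, was at 4.15, 5.15 and 2.90 CPM in mutant replicates 1, 2 and 3 and at 2.82, 2.99 and 3.36 CPM in control replicates 1, 2 and 3. Mutant replicates 1 and 2 lay above every control library and mutant replicate 3 lay among them. From 65 to 112 counts a library, the log2 fold change was 0.41 (SE 0.23). gbb, which encodes a ligand of the BMP5 to BMP8 type, was at 14.5, 11.1 and 9.33 CPM in mutant and 10.1, 10.2 and 11.2 CPM in control replicates 1, 2 and 3. Here mutant replicate 1 was the high library and mutant replicate 3 the low one, and the groups overlapped. The log2 fold change of gbb was 0.16 (SE 0.15) and was −0.03 without mutant replicate 1, and that of dpp was 0.21 without mutant replicate 2 and 0.60 without mutant replicate 3.

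The receptor genes were abundant and varied little between libraries. tkv, the type I receptor gene that carries most of the Dpp signal, was at 108, 102 and 105 CPM in mutant and 98.3, 102 and 96.3 CPM in control replicates 1, 2 and 3, a log2 fold change of 0.09 (SE 0.04). The groups of tkv were nearly touching, with mutant replicate 2 at 102.3 and control replicate 2 at 102.0 CPM. sax, the other type I receptor gene, was at 95.7, 94.3 and 94.3 CPM in mutant and 98.7, 104 and 101 CPM in control replicates 1, 2 and 3, a log2 fold change of −0.10 (SE 0.04). Every mutant library lay just below every control library. put, the type II receptor gene shared with the activin branch, was at 110, 110 and 103 CPM in mutant and 122, 117 and 116 CPM in control replicates 1, 2 and 3. put also had every mutant library below the control libraries, by −0.14 (SE 0.04) on the log2 scale.

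The Smad genes that carry the signal showed no difference of the size seen in Dad. Mad was at 136, 128 and 134 CPM in mutant and 127, 142 and 133 CPM in control replicates 1, 2 and 3, so that both the highest and the lowest library were controls. Its log2 fold change was −0.02 (SE 0.05), and leaving out mutant replicate 2 gave 0.01, control replicate 2 gave 0.03. Med, the gene of the common partner Smad, was at 76.5, 73.1 and 72.8 CPM in mutant and 80.5, 83.2 and 79.1 CPM in control replicates 1, 2 and 3, which is −0.13 (SE 0.04) on the log2 scale, and the groups did not overlap. Exons of CycG and Mnat9 on the opposite strand cover 9.66% and 2.69% of the exon length of Med, and CycG was at 991 ± 29.2 CPM in mutant and 1037 ± 7.57 CPM in control ovaries (SD, n = 3). The strand setting of the counting is not given in the sources used here, so reads of that stretch of Med are uncertain.

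Of the nuclear repressor side, brk, which encodes the repressor of Dpp target genes, was at 9.66, 10.1 and 7.81 CPM in mutant and 8.43, 7.91 and 8.47 CPM in control replicates 1, 2 and 3. Mutant replicate 3 was the lowest library of all, and the log2 fold change of brk was 0.15 (SE 0.12). shn, the cofactor through which Mad and Med repress brk, was at 87.1, 78.3 and 71.5 CPM in mutant and 74.6, 79.5 and 74.4 CPM in control replicates 1, 2 and 3. Its log2 fold change was 0.05 (SE 0.07), with the highest and the lowest library both mutant, and it was −0.02 without mutant replicate 1. 

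Mutant replicate 3 was the lowest mutant library for 7 of the 10 genes: dpp, gbb, sax, put, Med, brk and shn. For sax (94.31 against 94.34 CPM in mutant replicate 2) and Med (72.8 against 73.1 CPM) the margin was slight. No such share over all genes is given here. Relative to the control mean, mutant replicate 3 lay at −0.07 for dpp, −0.17 for gbb, −0.08 for brk and −0.09 for shn on the log2 CPM scale, while Dad lay at 1.27 there, its highest value. The same library was low in the sum of muscle markers (71.7 CPM, against 133 and 120 in mutant replicates 1 and 2). Its sums were also low for germarium markers (239 CPM, against 296 and 286) and follicle cell markers (7922 CPM, against 9342 and 9447). Within the germarium list the genes differed. In mutant replicates 1, 2 and 3, tj was at 160, 154 and 106 CPM, while zfh1 was at 63.9, 66.1 and 68.7 CPM. Control replicate 1 was as low in muscle markers, at 68.8 CPM. The part of these markers in the results was not tested; without mutant replicate 3 the log2 fold change of Dad was 1.18.

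**Figure D2:**
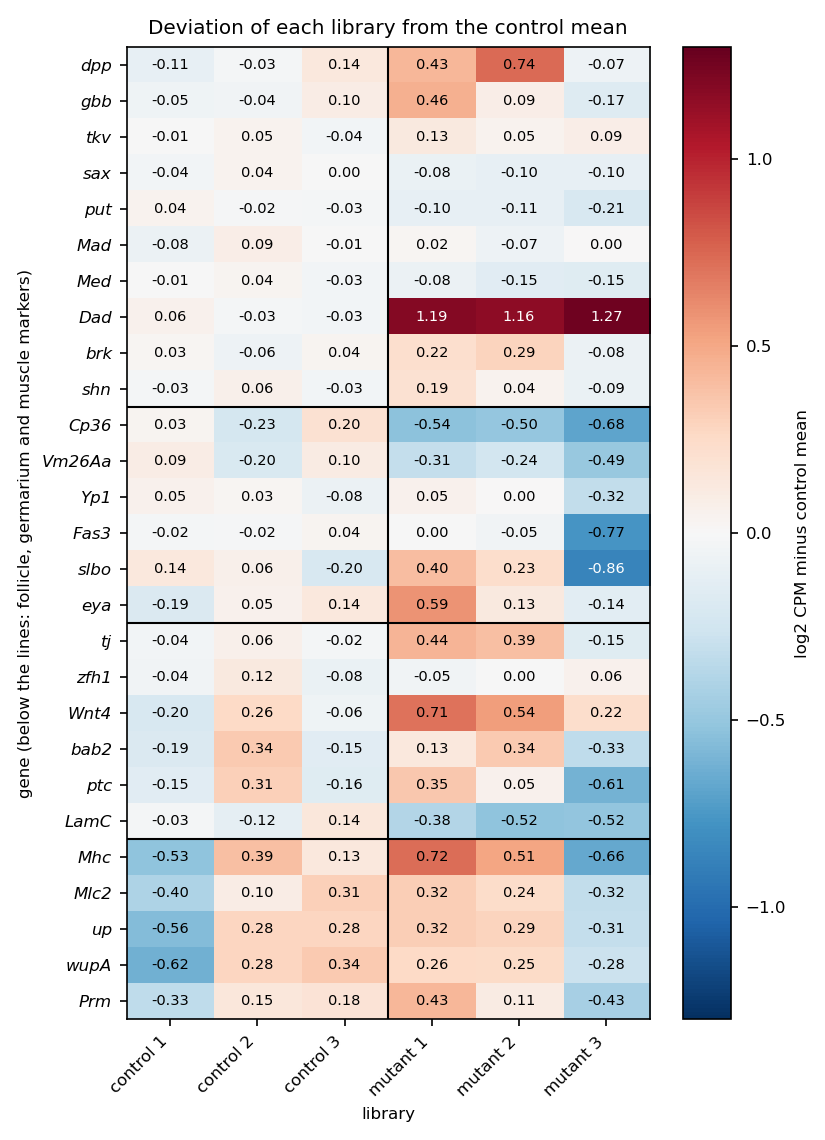
Deviation of each library (columns) from the control mean in log2 CPM for the 10 pathway genes and for the tested markers of follicle cells, germarium somatic cells and muscle (rows, in blocks from top to bottom). Dad is at 1.16 to 1.27 in the 3 mutant libraries, while dpp, gbb, brk and shn are below 0 in mutant replicate 3, as are all 5 muscle markers.

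Per kilobase of exon the pathway was dominated by its receptors and by the Smads that carry the signal. In control ovaries Mad was highest at 39.2 ± 2.31 CPM per kb, followed by sax at 35.4 ± 0.961, put at 29.6 ± 0.765, Med at 23.6 ± 0.609 and tkv at 22.3 ± 0.653 (SD, n = 3). A lower tier held shn at 6.93 ± 0.262, gbb at 6.22 ± 0.369, Dad at 4.81 ± 0.169, brk at 2.59 ± 0.0975 and dpp at 0.587 ± 0.0532 CPM per kb. No neighbours in this order overlapped in the control libraries, but Med and tkv came within 0.1 of each other, at a lowest value of 23.1 and a highest of 23.0, and changed places when the longest transcript was used as the length. In the mutant libraries Dad stood at 11.1 ± 0.421 CPM per kb, above shn at 7.18 ± 0.714 and gbb at 6.91 ± 1.55, whose ranges overlapped. The level of Dad per kb was 0.277, 0.288 and 0.296 of that of Mad in mutant replicates 1, 2 and 3 and 0.135, 0.113 and 0.121 in control replicates 1, 2 and 3.

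**Figure D3:**
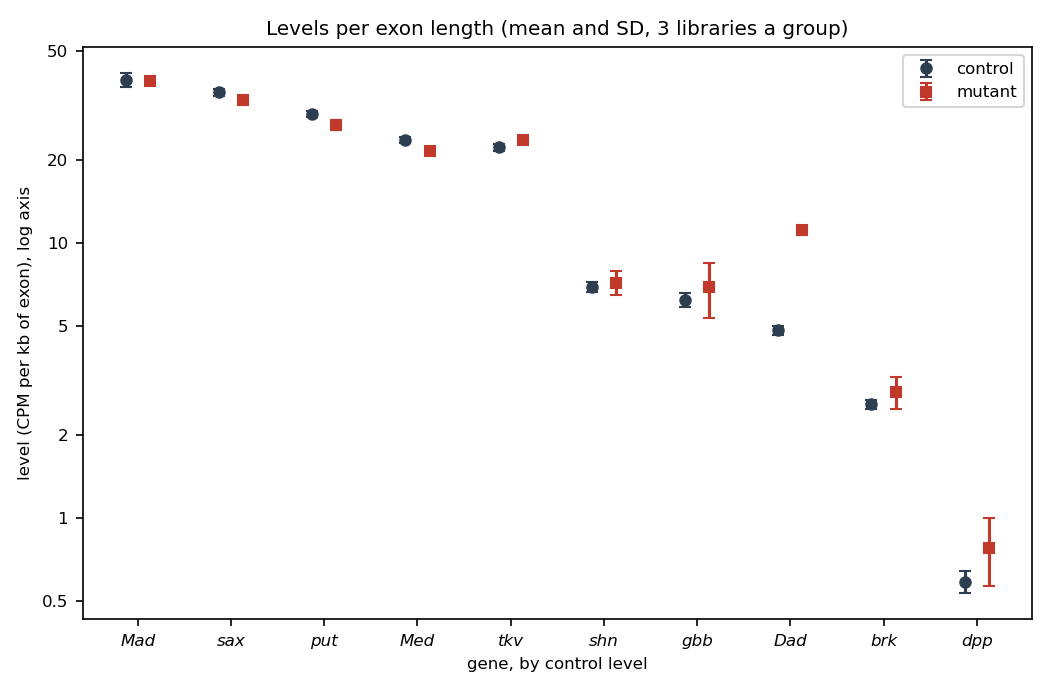
Level per kilobase of exon (log axis, CPM per kb) of the 10 genes, ordered by their control level, as mean ± SD of 3 control libraries (circles) and 3 mutant libraries (squares). Dad moves from 4.81 to 11.1 CPM per kb, past gbb and shn, and the other genes keep their tier.

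In coordinates of the build BDGP6 (dm6), the protein-coding gene Dad (FBgn0020493) spans 17054007 to 17070408 of arm 3R, plus strand, with 4 annotated transcripts and 3.91 kb of exon, and no other annotated gene overlaps it. put (14619030 to 14625703, minus strand) and Med (31611046 to 31615375, plus strand) lie on 3R as well. dpp (2428372 to 2459823, plus), Mad (3146056 to 3159643, minus) and tkv (5219000 to 5271384, minus) lie on 2L. gbb (23851562 to 23853247), sax (7806484 to 7810067) and shn (11159086 to 11217394), all on the plus strand, lie on 2R, and brk (7307939 to 7311132, plus) lies on X.

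Ipo9 is on 3R too, 5.64 Mb from Dad, 3.21 Mb from put and 20.2 Mb from Med. The chromosome with the D1 allele and the w1118 chromosome can differ at other sites, and such differences and the allele cannot be told apart in this design. The share of tested genes called on 3R was 14.5%, equal to the 14.5% over all genes. Of 24 tested genes that start within 100 kb of Dad, 1 was called higher and 1 lower, with a median log2 fold change of −0.02. Ns1, which encodes a nucleolar GTPase, was higher by 0.20 on the log2 scale (SE 0.04, edgeR adjusted p = 0.00973), and kuk, which encodes a nuclear envelope protein, differed by −0.20 (SE 0.05, edgeR adjusted p = 0.0312). Their neighbour Patr-1, the tested gene whose start is nearest to that of Dad, was at 192 CPM in mutant and 199 CPM in control ovaries, with a log2 fold change of −0.05 (SE 0.04).

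**Figure D4:**
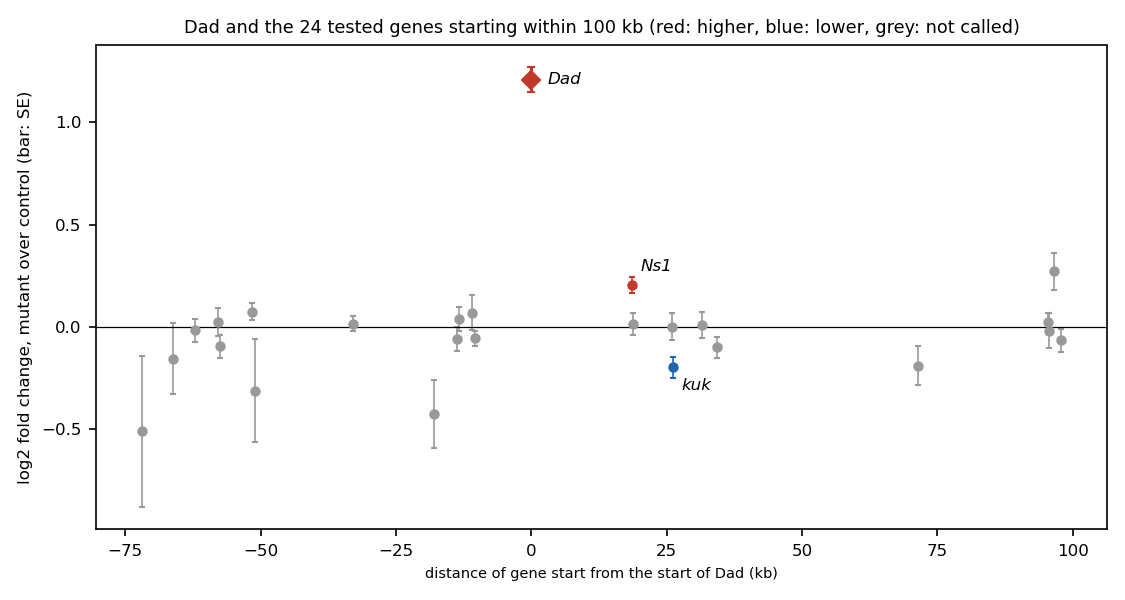
Log2 fold change of mutant over control with its SE (vertical axis) against the distance of a gene's start from the start of Dad in kb (horizontal axis) for Dad (diamond) and the 24 tested genes within 100 kb (circles, red for called higher, blue for called lower, grey for not called). Dad is at 1.21, and its neighbours lie between −0.51 and 0.27.

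Outside the 10 core genes, 56 further genes of the BMP and activin pathways in 5 lists were compared in the same fit. Of these, 41 had enough counts to test, and 3 were called higher (dlp, magu and Fkbp12), 2 lower (tok and bam) and 36 neither, with a median log2 fold change of 0.03. That is 5 of 41 called, where 14.5% of all genes tested were called. The number called moved with the libraries and tools used. DESeq2 called 6 higher and 5 lower, and without mutant replicate 3 there were 11 higher and 3 lower, the additions being dally, nord, br, peb, ush, msk and the collagen genes Col4a1 and vkg among the higher and Ote among the lower. These additions were named after their values were seen. Without control replicate 1, 1 was higher and 1 lower, and 1 was lower without mutant replicate 1, mutant replicate 2 or control replicate 2.

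**Figure D5:**
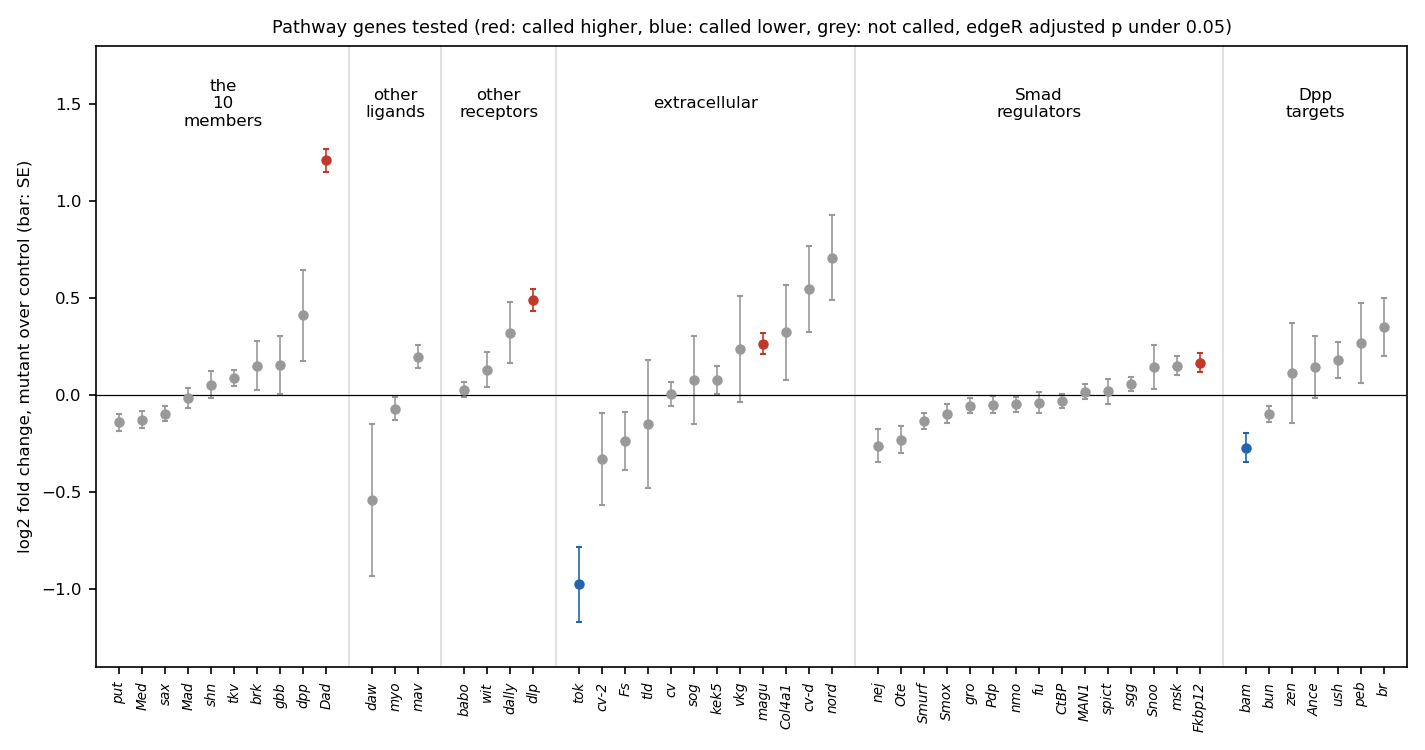
Log2 fold change of mutant over control with its SE (vertical axis) for the 10 core genes and the 41 tested genes of 5 further pathway lists (horizontal axis, ordered within each list; red for called higher, blue for called lower, grey for not called). Dad at 1.21 and tok at −0.97 are the highest and the lowest of all genes plotted.

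Among 4 other receptor and co-receptor genes, 1 was called higher and 0 lower, with a median log2 fold change of 0.23. dlp, a gene for a glypican, a heparan sulfate proteoglycan at the cell surface that binds secreted signals, was at 119, 118 and 122 CPM in mutant and 84.8, 92.4 and 78.9 CPM in control replicates 1, 2 and 3. Every mutant library lay well above every control library. The mean of dlp rose from 85.4 ± 6.75 to 120 ± 2.19 CPM (SD, n = 3). This is a difference of 0.49 on the log2 scale (SE 0.06) with an edgeR adjusted p of 5.0e-04, and dlp was called under all 14 alternatives, with adjusted p from 6.4e-11 to 0.00378. dally, the gene of the other cell surface glypican and a partner of Dpp in the germarium, was at 33.7, 34.0 and 22.8 CPM in mutant and 22.3, 24.7 and 25.4 CPM in control replicates 1, 2 and 3, so mutant replicate 3 lay among the controls. The log2 fold change of dally was 0.32 (SE 0.16, edgeR adjusted p = 0.241), and 0.49 (adjusted p = 0.00115) without mutant replicate 3. babo, the type I receptor gene of the activin branch, was at 180 ± 4.36 CPM in mutant and 176 ± 5.07 CPM in control ovaries, which differ by 0.03 on the log2 scale (SE 0.04, adjusted p = 0.681). At an unadjusted p under 0.05, dlp was again the 1 gene of the list higher, and 0 were lower by edgeR, DESeq2 and limma-voom.

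Of 15 genes for extracellular modulators, 12 were tested, and 1 was called higher and 1 lower, with a median log2 fold change of 0.08. limma-voom called the same 2 genes, magu and tok. At an unadjusted p under 0.05, nord and cv-d were also on the higher side, and DESeq2 called nord as well (adjusted p = 0.0412). nord, which encodes a secreted protein known to modulate BMP signals in the wing, was at 6.73, 6.62 and 4.24 CPM in mutant and 3.12, 3.31 and 4.34 CPM in control replicates 1, 2 and 3. Mutant replicate 3 lay below control replicate 3, and the edgeR log2 fold change of 0.71 (SE 0.22, adjusted p = 0.0581) was the highest among the 41 further genes tested and passed the threshold without mutant replicate 3 (0.90, adjusted p = 0.00789). nord also passed it with no composition factor (adjusted p = 0.0472) and with no filter beyond 1 count (0.0426). tok, a gene for a protease of the Tolloid type, a family known to free BMP ligands by cleaving Sog, was at 6.30, 5.34 and 3.79 CPM in mutant and 8.46, 11.8 and 10.2 CPM in control replicates 1, 2 and 3. Every mutant library was below every control library. tok fell from 10.2 ± 1.66 to 5.14 ± 1.26 CPM (SD, n = 3), which is −0.97 on the log2 scale (SE 0.19) with an edgeR adjusted p of 0.0107. Its call ended when both libraries numbered 2 were left out, at −0.88 (adjusted p = 0.0981). magu, a gene for a secreted protein that spreads Dpp in the wing and is known there as pentagone, was at 81.4, 76.9 and 73.8 CPM in mutant and 62.2, 67.9 and 63.1 CPM in control replicates 1, 2 and 3. magu rose by a log2 fold change of 0.27 (SE 0.05, edgeR adjusted p = 0.00998), a call that ended without control replicate 1 (0.24, adjusted p = 0.0532). Exons of PIG-N and of an antisense RNA on the opposite strand cover 10.2% and 8.61% of the exon length of magu, so its value is uncertain there.

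The collagen IV genes Col4a1 and vkg, whose proteins bind Dpp in the germarium, varied widely among the mutant libraries. Col4a1 was at 290, 234 and 155 CPM in mutant and 168, 195 and 180 CPM in control replicates 1, 2 and 3, and vkg at 200, 161 and 99.3 and at 124, 140 and 128 CPM. In both genes mutant replicate 1 was the highest library and mutant replicate 3 the lowest. Their log2 fold changes were 0.32 (SE 0.25, edgeR adjusted p = 0.464) and 0.24 (SE 0.27, adjusted p = 0.631), and without mutant replicate 3 they were 0.53 (adjusted p = 0.0239) and 0.47 (adjusted p = 0.0231). vkg was at 0.00 without mutant replicate 1 (−7.3e-05).

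Of 5 other ligand genes, 3 were tested and 0 were called by edgeR or limma-voom, with a median log2 fold change of −0.07. mav was higher at an unadjusted p under 0.05 and was called by DESeq2. mav, which encodes a ligand of the wider BMP and activin family, was at 96.9, 98.1 and 97.1 CPM in mutant and 82.4, 93.4 and 79.0 CPM in control replicates 1, 2 and 3. Its groups did not overlap, and control replicate 2 lay nearest to the mutants. For mav the log2 fold change was 0.20 (SE 0.06, edgeR adjusted p = 0.0510), and 0.27 (adjusted p = 0.00827) without control replicate 2. mav also passed the threshold with no filter beyond 1 count (adjusted p = 0.0257) and without both libraries numbered 2 (0.0246). myo, a gene of the activin branch, was at 76.4 ± 5.11 and 80.2 ± 3.96 CPM (log2 fold change −0.07, SE 0.06, adjusted p = 0.474).

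All 15 genes for other Smads and their regulators were tested, and 1 was called higher and 0 lower, with a median log2 fold change of −0.04. Fkbp12, whose vertebrate counterpart binds type I receptors, was at 507, 513 and 491 CPM in mutant and 439, 427 and 479 CPM in control replicates 1, 2 and 3. Its log2 fold change of 0.17 (SE 0.05, edgeR adjusted p = 0.0473) was close to the threshold, and the call ended when some single libraries were left out. The adjusted p was 0.124 and 0.131 without mutant replicates 1 and 2, and 0.172 and 0.137 without control replicates 1 and 2. msk, the gene of the importin that carries activated Mad into the nucleus, was the most abundant of the list at 1054, 1064 and 1031 CPM in mutant and 931, 1001 and 901 CPM in control replicates 1, 2 and 3. Its groups did not overlap, and the log2 fold change was 0.15 (SE 0.05, edgeR adjusted p = 0.0554). msk passed the threshold without mutant replicate 3 (adjusted p = 0.0462), without control replicate 2 (0.0285), with no filter beyond 1 count (0.0446) and under DESeq2 (0.0145). Smurf, nej and Ote had an unadjusted p under 0.05 on the lower side, and DESeq2 called all 3 lower, while limma-voom called 0 genes of the list in either direction.

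Of 17 known Dpp target genes, 7 were tested, 0 were called higher and 1 lower, with a median log2 fold change of 0.15. The wing and embryo targets salm, pnr, Doc1 and lab had 0 counts in every library. bam, the differentiation gene that Dpp represses in germline stem cells, was at 31.1, 34.8 and 38.5 CPM in mutant and 42.0, 41.7 and 42.0 CPM in control replicates 1, 2 and 3. The control libraries were nearly equal, and the mutant libraries were spread out below them. The log2 fold change of bam was −0.27 (SE 0.07, edgeR adjusted p = 0.0356). This call did not survive leaving out any 1 library except mutant replicate 3: the adjusted p was 0.101 and 0.0885 without mutant replicates 1 and 2, and 0.106, 0.0884 and 0.0953 without control replicates 1, 2 and 3. For peb, a zinc finger gene of follicle cells, the log2 fold change was 0.27 (SE 0.20, adjusted p = 0.458), and 0.44 (adjusted p = 0.0499) without mutant replicate 3. bun, a gene of the TSC22 family that Dpp regulates in follicle cells, was at 330 ± 3.87 and 354 ± 13.6 CPM (log2 fold change −0.10, SE 0.04, adjusted p = 0.142). An unadjusted p under 0.05 was reached by bam and bun on the lower side and by 0 genes on the higher side, and DESeq2 and limma-voom called bam lower and 0 higher. Exons of CG11854 on the opposite strand, which held 1 count in all 6 libraries together, cover 11.5% of the exon length of bam.

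The tested genes whose profile over the 6 libraries was nearest to that of Dad were CG1774, CG4098, CG7352, CR14033 and CG15739. Likeness was the root mean square difference of log2 CPM, each gene centred on its control mean, among 6756 genes that averaged 5 CPM or more, and the values were 0.070, 0.087, 0.089, 0.138 and 0.150. The nearest of the core genes that reached that average was brk at 0.77, at rank 1164. With profiles centred on the control mean, nearness to Dad is mostly likeness in the mutant against control difference. Dad was selected on that difference, so the ranks are a description and say nothing about shared regulation. CG1774 rose from 13.4 ± 0.397 to 30.0 ± 2.26 CPM (SD, n = 3), and it lies 16.3 kb from Med on 3R, at 31592803 to 31594719. CR14033, annotated as a pseudogene on the plus strand of 2L at 5242699 to 5244239, lies within tkv, on the other strand. It was at 86.8, 101 and 106 CPM in mutant and 49.2, 43.4 and 47.9 CPM in control replicates 1, 2 and 3, and its exon shares 158 bases with exons of tkv, 3.56% of the exon length of tkv. tkv itself, at 105 ± 2.78 and 98.9 ± 2.90 CPM, did not have a difference of that size.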

How the data were processed

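The authors deposited 1 table of raw read counts per gene for each of 6 libraries. The submitters' processing notes name TopHat2, HTSeq and DESeq2 and the builds dm6 and BDGP6. For the tool versions and roles, the annotation release and the strand of counting, the source used here gives nothing. Of 17559 genes, symbols came from the Ensembl annotation of BDGP6 by identifier for 17253 and by position (reciprocal overlap of at least 90%) for 213, Med and br among them. Counts were fitted with edgeR 4.0.16 in R 4.3.3: filterByExpr with a minimum count of 10 kept 8110 genes, with TMM scaling, robust quasi-likelihood F-test of mutant against control over all 6 libraries, Benjamini-Hochberg adjustment over all genes tested and a threshold of 0.05. Every adjusted p of the main fit and of the alternatives comes from that tool unless DESeq2 1.42.0 or limma 3.58.1 (voom) is named. SEs are the log2 fold change over the root of F. CPM use the TMM factors and the SD is over 3 libraries. Log2 CPM profiles use a prior count of 2. Levels per kb use the summed exon length. The scripts were tested on simulated data.

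The 10 genes, the 5 further pathway lists and the 7 marker lists (germline, follicle cells, germarium somatic cells, muscle, fat body, neurons, testis) were chosen with earlier results of these data known. Named in the text are the 10 genes, Ipo9, every called gene of the further lists and the 2 most abundant of each, the 5 genes with the profile nearest to Dad, and the markers. dally, nord, the neighbours of Dad and the genes added by an alternative were named after their values were seen. Same-numbered replicates deviated from their group means with correlations of −0.23, −0.26 and −0.12, so they were not treated as pairs. Alternatives were other scalings, filters and tools, a replicate block, each library left out, and both libraries numbered 2 left out. The labels mention no molecular identifiers, so PCR copies may be among the reads. No sequence is shown, as none was used here.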

Additional observations from a re-analysis of the deposited data

How the results depend on the processing

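Of the 10 core genes, 1, Dad, was called in the main fit and 1 under each alternative, including each library left out (1 to 1). As Dad was selected on this difference in these libraries, that count supports nothing. The count of called genes over all 8110 tested was 1177, with 728 under the replicate block, 516 without both libraries numbered 2, and 566 to 1475 when 1 library was left out (778 and 739 without mutant replicates 1 and 2, 566 and 775 without control replicates 1 and 3). The further pathway genes called higher numbered 3, with 6 under DESeq2, 6 with no filter beyond 1 count and 1 to 11 with a library left out. Those called lower numbered 2, with 5 under DESeq2, 0 without both libraries numbered 2 (where edgeR called 3 higher) and 1 to 3 with a library left out. The replicate block called 4 higher and 2 lower; it ended the calls of Fkbp12 (adjusted p = 0.0997) and bam (0.0539) and added peb (0.0490) and br (0.0479) on the higher and nej (0.0441) on the lower side. Under relative log expression factors and limma-voom Fkbp12 also missed the threshold (0.0534 and 0.0537). The log2 fold change of vkg, not called, was 0.24, and −7.3e-05 to 0.47 with a library left out, below 0 without mutant replicate 1. Of the core genes not called, Mad changed sign under 3 alternatives, and gbb and shn under 1 each. With the longest transcript as the length, 8 of 10 core genes kept their place in the control order. The causes were not tested. Counts were lowest for dpp, at 65 to 112 a library. Counting alone would give dpp an SD of about 10.3% of the mean in mutant and 11.7% in control libraries. The SD seen was 27.7% and 9.08%.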

Other observations

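The coefficient of variation of CPM (SD over mean, n = 3 libraries) of the 10 core genes ran from 2.58% for Med to 9.08% for dpp in the control group, with Mad at 5.88%. In the mutant group it was 27.7% for dpp, 22.4% for gbb, 13.3% for brk and 9.95% for shn, and from 0.834% for sax to 3.95% for put among the other 6, with Dad at 3.78%. Whether the groups differ in this spread was not tested.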
